A study of Drosophila melanogaster with 2 samples.

Results

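In 0 to 24 h Drosophila melanogaster embryos carrying GFP-tagged Nemo, 7887 of the 30000 peaks in the pooled peak list (26.3%) lay in dense chains, in which at least 6 peak summits followed each other with no gap of more than 2000 bp. The chains numbered 918. They were selected on the summit positions of the pooled list alone, so their number and density are a description and were not tested. A further 16333 peaks lay in runs of 2 to 5 summits, and 5780 had no other summit within 2000 bp. The material was whole embryos of both sexes from a line that stably expresses nmo with GFP at its C-terminal end, precipitated through the tag. The series holds 1 group of 2 samples, biological replicates 2 and 3, with separate biosample records, so there is no comparison between conditions. All tissues of the embryo were mixed in each sample, and the sources used here do not name the promoter that drives the transgene or its copy number. Per the deposited notes, the peak lists were made from the alignments and 1 further file, which also entered the control-normalised tracks and not those scaled by read depth. Neither that file nor any mock or input precipitation was analysed here, and the number of reads behind a peak was not known.

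Nemo is a proline-directed serine/threonine kinase known for roles in the polarity of epithelia and in Wnt and BMP signalling. It has no known sequence-specific DNA-binding domain, and a peak in chromatin precipitated through such a protein marks DNA recovered with it, directly or through other proteins. Fly genes that respond to many signals, such as those of transcription factors and receptors, often carry several separate enhancers in their introns and flanks. Clusters of binding sites over such regions are a familiar feature of chromatin profiles.

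The windows below show what lies under summits of chains named in the results. Each holds a summit and 100 bp on each side, from the plus strand of the RefSeq copy of assembly Release 6 (dm6 coordinates), and none touches an annotated exon. Capitals mark matches on either strand to 7 short sequences. The element bound by DREF, the DRE, was searched as TATCGATA. For the early activator Zelda the sequence was CAGGTAG. The repeat known from GAGA factor was searched as GAGAGAG. The homeodomain core was TAATTA. One E-box was searched as CAGCTG. The TATA box was TATAAA. The Snail type E-box was searched as CACCTG. None of the 7 contains another. A match is a string of letters and not a shown binding site. The first pair comes from nmo, the tagged gene, at its promoter and in its intron. The promoter summit also lies 242 bp from a start of the neighbouring gene Pop4. The next 3 are the strongest chain peaks with such a window, then come 2 intronic and 2 intergenic summits of the largest chains and 1 summit of a chain without any peak of the authors' thresholded list, described next.
nmo promoter, chr3L:7978792-7978992: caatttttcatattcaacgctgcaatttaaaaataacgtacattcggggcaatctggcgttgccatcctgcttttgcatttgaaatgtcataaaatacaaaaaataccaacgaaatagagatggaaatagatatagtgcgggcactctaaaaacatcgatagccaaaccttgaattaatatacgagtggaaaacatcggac
nmo intron, chr3L:7994035-7994235: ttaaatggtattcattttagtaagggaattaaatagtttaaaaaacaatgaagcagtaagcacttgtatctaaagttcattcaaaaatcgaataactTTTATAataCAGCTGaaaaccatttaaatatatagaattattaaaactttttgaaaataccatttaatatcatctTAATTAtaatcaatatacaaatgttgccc
ush intron, chr2L:480957-481157: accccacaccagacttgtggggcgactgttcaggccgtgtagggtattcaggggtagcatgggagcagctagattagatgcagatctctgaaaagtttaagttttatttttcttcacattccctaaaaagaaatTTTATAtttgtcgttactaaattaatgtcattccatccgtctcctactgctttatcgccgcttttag
Trl intron, chr3L:14759421-14759621: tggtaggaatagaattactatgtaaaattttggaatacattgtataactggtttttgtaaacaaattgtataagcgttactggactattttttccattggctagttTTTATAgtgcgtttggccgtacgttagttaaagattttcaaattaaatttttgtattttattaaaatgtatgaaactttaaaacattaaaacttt
ph-p promoter region, chrX:2137203-2137403: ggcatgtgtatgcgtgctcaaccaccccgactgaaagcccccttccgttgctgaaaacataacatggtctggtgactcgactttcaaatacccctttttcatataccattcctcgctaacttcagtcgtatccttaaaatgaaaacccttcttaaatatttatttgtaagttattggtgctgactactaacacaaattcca
rdx intron, chr3R:14018101-14018301: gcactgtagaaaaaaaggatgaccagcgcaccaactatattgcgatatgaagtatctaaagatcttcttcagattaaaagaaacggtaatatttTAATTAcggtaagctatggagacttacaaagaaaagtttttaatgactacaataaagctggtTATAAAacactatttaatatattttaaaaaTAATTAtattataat
tara intron, chr3R:16236875-16237075: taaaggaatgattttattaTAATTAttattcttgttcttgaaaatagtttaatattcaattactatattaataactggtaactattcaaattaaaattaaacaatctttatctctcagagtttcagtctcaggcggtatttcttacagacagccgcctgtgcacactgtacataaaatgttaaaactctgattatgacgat
Dip-B flank, strongest summit, chr3R:13800534-13800734: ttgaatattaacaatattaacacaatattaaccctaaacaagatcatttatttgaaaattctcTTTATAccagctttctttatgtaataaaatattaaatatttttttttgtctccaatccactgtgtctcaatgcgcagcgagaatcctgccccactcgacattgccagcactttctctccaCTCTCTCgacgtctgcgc
Dip-B flank, next summit, chr3R:13794031-13794231: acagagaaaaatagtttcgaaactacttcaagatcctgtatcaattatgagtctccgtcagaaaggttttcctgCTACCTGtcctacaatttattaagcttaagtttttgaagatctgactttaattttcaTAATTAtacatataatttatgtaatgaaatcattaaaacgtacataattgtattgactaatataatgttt
TP53INP intron, chr3L:4413177-4413377: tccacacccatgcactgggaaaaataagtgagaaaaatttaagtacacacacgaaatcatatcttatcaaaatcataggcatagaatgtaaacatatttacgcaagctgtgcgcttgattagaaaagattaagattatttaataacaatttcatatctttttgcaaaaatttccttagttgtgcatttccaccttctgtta

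These windows were rich in A and T, with a GC content between 21.9% in the nmo intron and 41.3% in ush. All but that of TP53INP lie at peaks of the thresholded list, so they do not stand for the typical chain summit. Mean GC content was 34.1% at such peaks in chains, 41.9% at the other chain peaks and 39.5% over all chain summits. The nmo promoter, ph-p and TP53INP windows held none of the 7 sequences, whereas the rdx window held the homeodomain core at 2 places and a TATA box. The nmo intron window held the homeodomain core, the E-box and the TATA box.

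Chains held strong peaks at about the same share as the rest of the list. The authors also deposited 9299 peaks thresholded by the irreproducible discovery rate (IDR), and these are 31.0% of the pooled peaks. Within the pool they are exactly the strongest peaks: the lowest signal value, the authors' own score of a peak, was 165.733 among IDR peaks and the highest was 165.727 among the others. IDR peak therefore means here a peak above that signal value, and is not a separate measure of agreement of the replicates at that peak. The stronger peaks were also found in both replicates more often. The pool derives from the same 2 replicates, so this is a description and not separate evidence for those peaks. Both lists overlapped 99.3% of the IDR peaks in chains and 69.8% of the other chain peaks. With summits of both replicates within 100 bp the shares were 94.8% and 40.7%. In chains 2406 of 7887 summits (30.5%, 95% Wilson interval 29.5 to 31.5) were IDR peaks. Among summits outside chains it was 6893 of 22113 (31.2%, interval 30.6 to 31.8). All intervals on shares cover the counting of peaks or genes only. The share ran from 29.7% to 32.8% over every run size from 1 summit to 15 or more, with no order by size. In chains built from the list of replicate 3 alone 39.5% of summits overlapped an IDR peak, against 35.0% of all its peaks, and in those of replicate 2 alone 40.3% against 39.9%. Just outside the limit of 6 summits, the 463 runs of 5 had 30.1% IDR peaks, and just inside it the 295 chains of 6 also had 30.1%. At the limit of 2000 bp, 472 gaps in the last 100 bp below it joined summits and 459 gaps in the 100 bp above it split them. The signal value itself had a median of 87.3 in chains (quartiles 51.5 and 207) and 86.7 outside.

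**Figure D1:**
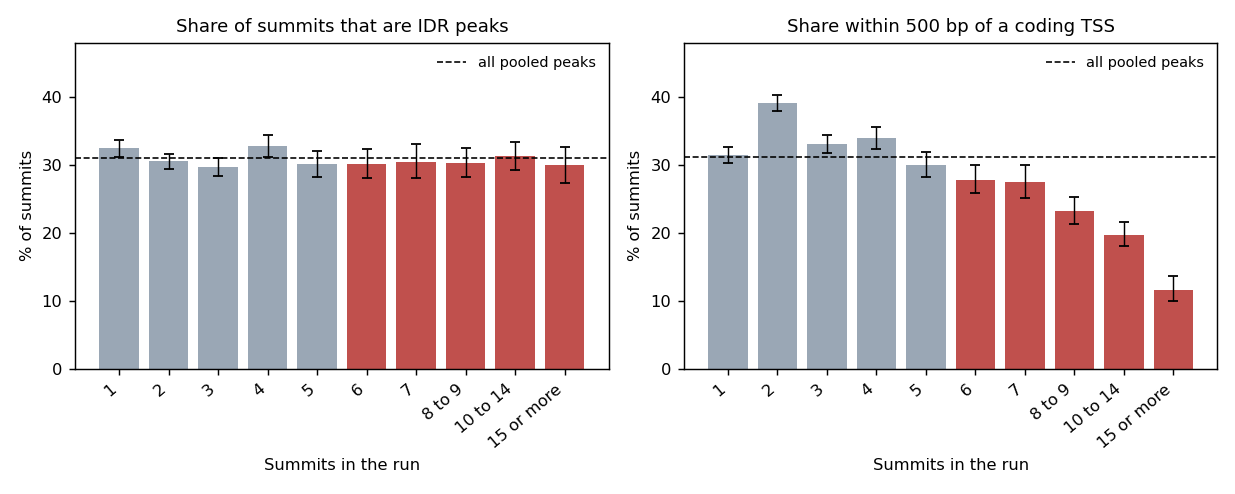
Share of summits (%) that are IDR peaks (left) and that lie within 500 bp of a protein-coding start site (right), by the number of summits in the run; bars in red are chains of 6 or more, error bars are 95% Wilson intervals and the dashed line is the share over all pooled peaks. The IDR share stays between 29.7% and 32.8%, while the share at start sites is 31.5% for single summits, 39.1% in runs of 2 and 11.7% in chains of 15 or more.

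The place of the summits differed with run size. Of the chain summits 1774 (22.5%, interval 21.6 to 23.4) lay within 500 bp of a transcription start site (TSS) of a protein-coding gene, against 31.1% of all pooled summits and 34.2% (33.6 to 34.8) outside chains. The share was 31.5% for single summits, 39.1% in runs of 2 and 27.9% in chains of 6. It was 19.8% in chains of 10 to 14 and 11.7% in chains of 15 or more. Neighbouring summits lay at least 199 bp apart, so few fit within 500 bp of 1 TSS. A lower share in long chains is thus in part built into the measure, and how large that part is was not tested. Introns held 46.1% of chain summits (45.0 to 47.2) and 37.5% of the others, and intergenic sequence 21.7% and 20.7%. Coding sequence held 2.09% and 2.62%. TSSs of other genes held 4.13% and 2.36%.

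The equal IDR shares hid opposite differences by place. At coding TSSs 759 of 1774 chain summits were IDR peaks (42.8%, interval 40.5 to 45.1), and outside chains 50.7% (49.5 to 51.8). In introns 28.2% of chain summits were IDR peaks (26.8 to 29.7), and outside chains 22.8% (21.9 to 23.7). Between genes the shares were 27.0% and 20.5%. A larger part of the chain summits lay away from coding TSSs, where IDR peaks were scarcer. Each of these 3 differences kept its sign in the 7 alternatives run, including with close summits merged and with each replicate's list alone. At coding TSSs the difference of -7.89 percentage points became -1.46 with peaks of q at most 0.05 only, -2.29 with replicate 2 alone and -3.91 with replicate 3 alone. With replicate 3 alone the difference was 12.3 points in introns, against 5.40 in the pool, and 15.6 between genes, against 6.58. Among the IDR peaks themselves, 31.5% of those in chains lay at a coding TSS (29.7 to 33.4), and 55.6% of those outside chains (54.4 to 56.8).

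Summits within a chain were not evenly spaced. A chain spanned a median of 5944 bp (range 1923 to 26261 bp), with a median of 7 summits and 1.29 summits per kb. Neighbouring summits were a median of 863 bp apart. A narrow group of pairs stood at the smallest distances: of 6969 neighbouring pairs 887 (12.7%) were 199 to 209 bp apart, and none was closer than 199 bp. In all, 1737 pairs (24.9%) were at most 436 bp apart, the most frequent peak width. Peaks of that width with central summits touch or overlap at such distances, but overlap was not counted from the peak ends. In runs of 2 to 5 summits the share of pairs this close was higher, at 31.5%. The smallest distance was also 199 bp in each replicate's list. Of the close pairs, 185 had IDR peaks on both sides, 574 on 1 side and 978 on neither. When summits this close were merged to the stronger one, a choice made after the data had been seen, 532 chains with 4260 summits were left.

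**Figure D2:**
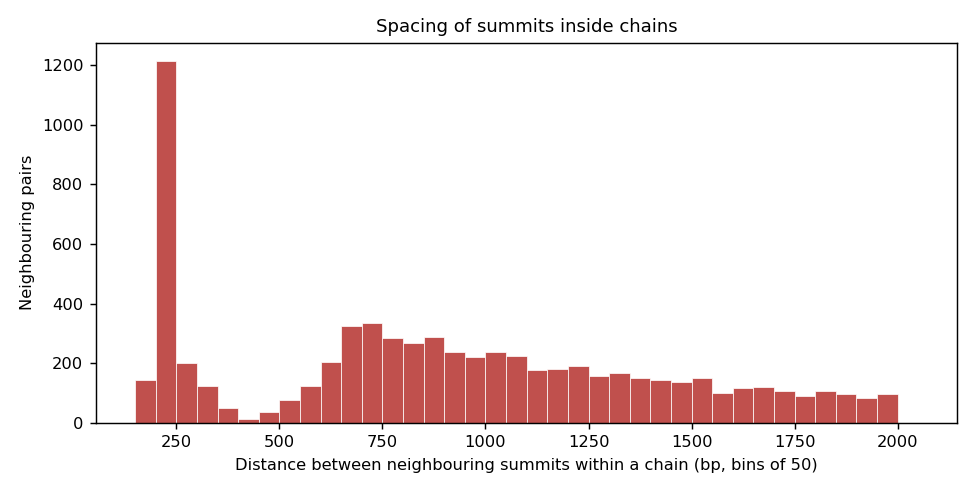
Number of neighbouring summit pairs within chains by their distance in bp, in bins of 50 bp. The bin from 200 to 249 bp holds 1214 pairs and the bin from 400 to 449 bp 14, with a second broad rise above 500 bp.

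Most chains held fewer strong than weak peaks, as did the pooled list as a whole. IDR peaks were 30.5% of chain summits and 31.0% of all pooled peaks. The strongest summit of a chain carried a median of 36.7% of the chain's summed signal value (range 13.9% to 85.8%). No such value is given here for shorter runs. A chain held a median of 2 IDR peaks, and the number ran from 0 in 79 chains to 13. In 179 chains IDR peaks made up as many of the summits as other peaks or more, and in none were all summits IDR peaks. The strongest summit lay in an intron in 379 chains, at a coding TSS in 293 and between genes in 195. Of all chain summits 53.8% had a q-value of at most 0.05 by the deposited column, the same as over the pooled list (53.8%). When chains were built from such peaks alone, 137 chains with 962 summits were left.

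Replicates placed many summits in the same chains, with more in replicate 2. Of the chain peaks 89.4% were overlapped by a peak in the list of replicate 2 and 87.7% in that of replicate 3. Both lists overlapped 6217 chain peaks (78.8%, interval 77.9 to 79.7), against 72.5% of all pooled peaks, and neither list did for 140. Overlap in both lists was 58.6% for single summits and 80.6% in chains of 15 or more. An overlap of 1 bp is easier to meet where peaks are dense: with summits of both replicates required within 100 bp, the shares were 53.5% for single summits, 57.2% in chains of 6 and 55.8% in chains of 15 or more. Inside the chains' spans replicate 2 had a median of 6 summits (range 1 to 33) and replicate 3 also 6 (range 1 to 24). Replicate 2 had more summits than replicate 3 in 457 chains, fewer in 290 and as many in 171. Both replicates had at least 6 summits in the span of 385 chains, and neither did in 262. Chained alone, the replicate 2 list gave 1036 chains with 8980 summits and the replicate 3 list 743 chains with 6079.

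**Figure D3:**
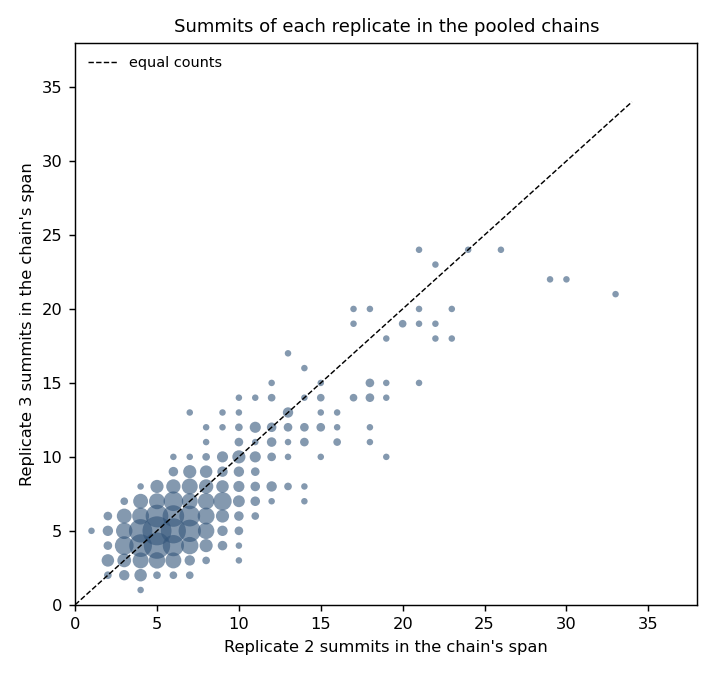
Summits of replicate 2 (x axis) and of replicate 3 (y axis) inside the span of each of the 918 pooled chains; the area of a point grows with the number of chains and the dashed line marks equal counts. The largest chains, at lola, Dip-B and CG46467, lie to the right, with 29 to 33 replicate 2 summits and 21 or 22 of replicate 3.

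Genes that hosted chains were mostly longer than protein-coding genes in general. The gene whose span held most summits of a chain, its host, was protein-coding in 744 chains (81.0%) and a non-coding RNA gene in 71, and 99 chains had no host. The 644 protein-coding hosts had a median length of 16676 bp. Over all 13968 protein-coding genes it was 2165 bp. The host is by rule the gene with most summits, which favours long genes. No host share or host length is given here for shorter runs or for all pooled summits. One host held all summits in 292 chains (31.8%), and in 196 (21.4%) the host held fewer summits than lay outside it. Among the latter were the chains at lola (10 of 29 summits in the host), glec (8 of 26) and scyl (6 of 24). No protein-coding TSS lay within the span of 301 chains, those of 1 gene lay in 379, and those of several genes in 238. The nearest coding TSS outside the span, other than the host's, was a median of 8615 bp away on the left and 8475 bp on the right. A gene was counted at a chain when it was the host or had a TSS within 1000 bp of the span, and this took 1255 genes (8.98% of all protein-coding genes). The share was 5.25% for genes under 2 kb, 13.1% at 5 to 10 kb, 29.4% at 20 to 50 kb and 32.3% at 50 kb or more. A longer gene can hold more summits, so a share for a set of genes has to be read beside their length.

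The 12 chains with most summits had 23 to 29, and 1 of them had no host. A pair of chains had 29 summits. The first ran over 26261 bp at lola and psq on 2R (10534346 to 10560606), genes of BTB domain factors, and had 10 IDR peaks, 33 summits in replicate 2 and 21 in replicate 3. Its strongest summit lay 409 bp from a TSS with a signal value of 1056, ranked 604 in replicate 2 and 866 in replicate 3.

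The other chain of 29 lay on 3R (13782222 to 13808093). Its host by rule was the dipeptidase gene Dip-B, which held only 2 of its summits, while 22 were intergenic on the side of tal-1A, which encodes small peptides that act in leg and epidermis patterning. It had 10 IDR peaks, of which the leftmost lay 11261 bp from the first summit. Replicate 2 had 30 summits there and replicate 3 22.

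At ush, the gene of a zinc-finger cofactor of GATA factors, 24 summits lay within the gene on 2L (477428 to 498487), which also holds the start of cbt, another zinc-finger gene. Its intronic summit at 481057 had the highest signal value of all chain peaks, 6041, and ranked 5 in the pool, 4 in replicate 2 and 7 in replicate 3. This summit made up 54.6% of the chain's summed signal, and the median of the chain was 132. Replicate 2 had 22 summits there and replicate 3 23.

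The chain at CHES-1-like, a forkhead factor gene on X (7690800 to 7712460), had 13 IDR peaks among 23 summits, the highest number of any chain. Its median signal value was 269, against 87.3 over all chain summits. With 13 of 23 summits above the signal limit of IDR peaks, the median had to lie above that limit. The chain over the apoptosis inhibitor gene Diap1 and its neighbour Mbs on 3L (16037186 to 16056414) had 11 IDR peaks among 25 summits, and 9 of its summits lay at coding TSSs. That at tara, a Trithorax group gene, had 10 IDR peaks among 25 summits. Its strongest peak (2261) was intronic and ranked 111 in replicate 2 and 166 in replicate 3.

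All 26 summits of the rdx chain were intronic (3R, 13997784 to 14020814). The gene encodes a ubiquitin ligase adaptor of the Hedgehog pathway. This chain had 7 IDR peaks, with 26 summits in replicate 2 and 24 in replicate 3. At vri, a clock repressor gene, 5 of 25 summits were IDR peaks, at scyl, an inhibitor of TOR signalling, 7 of 24, and at glec 7 of 26. The CG46467 chain, which also holds a start of Glut4EF, had 5 among 27. The last of the 12 had no host: its 23 summits on 3R (5094105 to 5116615) were all intergenic. A TSS of the protein-coding gene CG43131 lay inside the span, and the nearest coding TSSs outside it were those of corto and RabGGTa. Of the summits, 1 (2599) made up 52.4% of the signal.

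**Figure D4:**
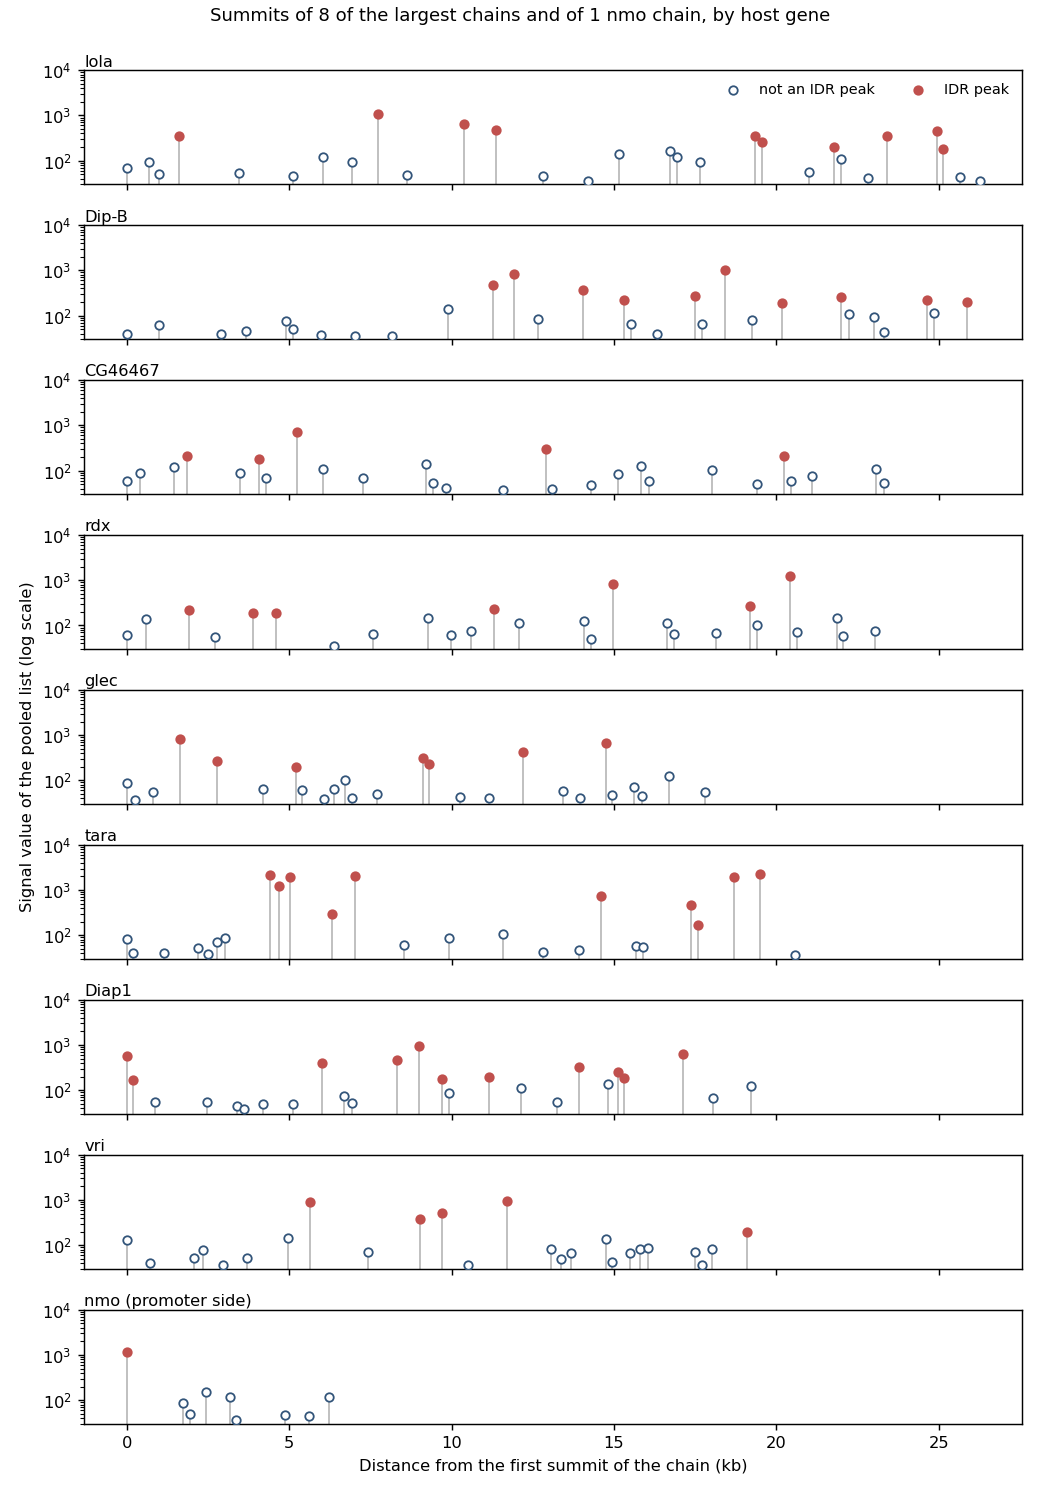
Signal value of each summit (log scale) against its distance in kb from the first summit, for the 8 chains with most summits and for the promoter chain of nmo; filled points are IDR peaks. By the signal limit the filled points are the higher ones, they are fewer than the open ones in every panel, and the first one of the Dip-B chain lies 11261 bp from its first summit.

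After that of ush, the next 4 chain peaks by signal value lay in chains at Trl, ph-p, HmgD and a non-coding RNA gene. The Trl chain, at the gene of the GAGA factor, had 6 summits, 4 of them IDR peaks, with an intronic peak of 5037 that ranked 7 in replicate 2 and 16 in replicate 3. The chain at ph-p, a Polycomb group gene, had 5 IDR peaks among 6 summits and a peak of 5032, ranked 13 and 8. The HmgD chain, at a pair of HMG-box protein genes, had a peak of 4284 among 21 summits, of which 5 were IDR peaks. A chain at a long non-coding RNA gene, lncRNA:CR44619 on X, had 8 IDR peaks among 11 summits and a peak of 4150. At shn, the gene of a zinc-finger factor of the BMP pathway, 10 of 19 summits were IDR peaks.

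Other chains held no IDR peak at all. The largest of the 79 had 13 summits at TP53INP, with values from 35.7 to 148, of which 11 were overlapped in both replicates. Others were at elB (11 summits), comm, which controls sorting of the Robo receptor in axons (11), and dve, a homeodomain gene (10). A further one, with 12 intergenic summits, lay next to shg, the E-cadherin gene. Of the 11 summits at comm, 3 were overlapped in both replicates, against 10 of 10 at dve.

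Several genes hosted more than 1 chain, and 14 hosted at least 3. The zinc-finger gene jing on 2R (6502006 to 6621792, plus strand) hosted 7, with 44 of their 47 summits in the gene and 8 IDR peaks. The Wnt receptor gene fz2 on 3L hosted 4 chains with 44 summits and 8 IDR peaks, the largest of 21 summits. Replicate 2 had 21 summits in that largest chain and replicate 3 15. The corepressor gene sbb hosted 4 chains with 13 IDR peaks among 43 summits, and the nuclear receptor gene Eip75B 4 with 6 among 37. A non-coding RNA gene, lncRNA:CR46006, hosted 4 chains with 5 IDR peaks among 35 summits.

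The tagged gene itself hosted 2 chains. The gene nmo lies on 3L (7979046 to 8054147, plus strand). From 20 kb upstream to 20 kb downstream of it, 15 of 53 peaks were in chains (28.3%, against 26.3% of all pooled peaks), and 3 of the 15 were IDR peaks. Of all 53 peaks 11 were IDR peaks, and of all chain summits in the genome 30.5% were. The first chain opened at the promoter summit, 154 bp upstream of the nmo TSS. On its other side this summit lay 242 bp from a TSS of the neighbouring gene Pop4, so it cannot be assigned to nmo alone. Its signal value was 1171 and its rank was 351 in replicate 2 and 852 in replicate 3. The 8 summits that followed had values from 36.2 to 152, and none was an IDR peak. Replicate 2 had 7 summits in its span and replicate 3 4. The second chain held 6 intronic summits, of which those with values of 449 and 202 were IDR peaks. The first of these ranked 2778 in replicate 2 and 3279 in replicate 3, and the second was overlapped in replicate 2 only (rank 6114). Replicate 2 had 4 summits there and replicate 3 2. When the replicates were chained alone, replicate 2 had a chain at the promoter and replicate 3 had none at either place.

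The share of genes at a chain ran from 0 to 38.1% over 12 lists of developmental, housekeeping and other genes. The lists were chosen with earlier results of these data known, and their shares stand beside the 8.98% of all protein-coding genes without a test. Neural fate genes were at a chain in 8 of 21 cases (38.1%, interval 20.8 to 59.1, median gene length 4026 bp). The epidermal and neural factor gene grh had 8 chain summits within 1000 bp and SoxN 7. Signalling ligand and receptor genes were at a chain in 10 of 28 cases (35.7%, interval 20.7 to 54.2, median length 14214 bp), with 44 chain summits at fz2, 20 at the BMP receptor gene tkv, and 18 at ptc, the Hedgehog receptor gene. Ecdysone response genes were in 5 of 14 cases (35.7%, interval 16.3 to 61.2, median length 45299 bp), led by Eip75B with 37 and the ecdysone receptor gene EcR with 20. Axon guidance and adhesion genes were in 7 of 19 (36.8%, interval 19.1 to 59.0, median length 50951 bp). They were led by the immunoglobulin adhesion gene kirre (28) and the Netrin receptor gene fra (19). Polycomb and Trithorax group genes were in 8 of 22 (36.4%, interval 19.7 to 57.0, median length 8260 bp). Of these, osa, a subunit gene of the BAP chromatin remodeller, had 12 chain summits and lola 10. Over all protein-coding genes the share was 5.40% at 2 to 5 kb, 13.1% at 5 to 10 kb and 20% at 10 to 20 kb. It was 29.4% at 20 to 50 kb and 32.3% at 50 kb or more, both inside the intervals of the ecdysone and axon lists.

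Of the early patterning lists, none of the 8 Hox genes was at a chain, although their median length was 30563 bp and all had pooled peaks. Antp had 36 pooled peaks within 1000 bp of the gene, 12 of them IDR peaks, in runs of at most 4 summits. Ubx had 27 peaks, 6 of them IDR peaks, in runs of at most 5, which is just below the limit. With 8 genes, a count of 0 allows a share of up to 37.5% when the limit is taken as 3 divided by the number of genes. The upper limit of the Wilson interval was 32.4%. Pair-rule and segment polarity genes were at a chain in 1 of 15 cases (6.67%), which was ptc. Gap genes were in 2 of 10 cases (interval 5.67 to 51.0), knrl and btd, and mesoderm and heart genes in 2 of 21 (9.52%). With so few genes, the intervals of these 3 lists hold the 8.98% of all genes. The mesoderm genes were bin, a forkhead gene of the visceral mesoderm, with 5 chain summits, and tin, a heart homeodomain gene, with 2. The tin count came from a chain hosted by mod(mdg4).

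Ribosomal protein genes, which are short (median 1326 bp), were at a chain in 15 of 92 cases (16.3%, interval 10.1 to 25.2), with 5 chain summits each at RpS23 and RpS18. In 4 cases (4.35%) the gene was itself the host, against 4.61% of all protein-coding genes. A chain summit lay within the gene in 6.52% of them, against 7.12% of all. Only the count that adds TSSs within 1000 bp of the span was above that of all genes. Chemoreceptor genes were at a chain in 3 of 179 cases (1.68%, interval 0.572 to 4.81, median length 1691 bp), among them Gr97a with 3 chain summits and Or45b with 1. Of 92 cuticle genes none was, which allows a share of up to 3.26% as 3 divided by the number of genes (Wilson limit 4.01%).

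**Figure D5:**
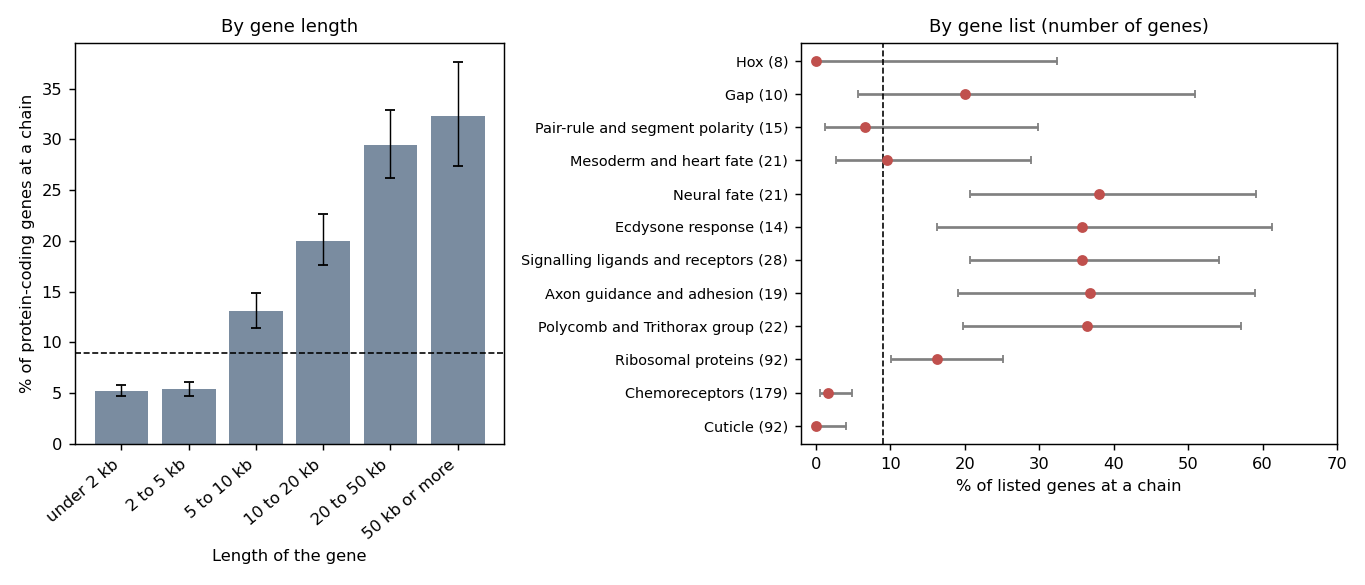
Share of protein-coding genes at a chain (%), by gene length (left, bars) and by gene list (right, points, with the number of genes in brackets); error bars are 95% Wilson intervals and the dashed line is the 8.98% of all protein-coding genes. The share is 5.25% for the shortest genes and 32.3% for the longest, and the Hox and cuticle lists are at 0.

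The chromosome arms held chains at similar densities. The 4 large autosomal arms had 6.33 to 7.51 chains per Mb and the X had 7.69. Arm 3L had the highest share of its peaks in chains (28.6%, interval 27.5 to 29.7) and 2L the lowest (23.9%, 22.8 to 25.1). On the X 34.5% of chain summits were IDR peaks (32.1 to 36.9), although 29.9% of all X peaks were, while on the autosomal arms the share in chains was 28.5% to 30.6%. None of the 78 peaks on chromosome 4 was in a chain, and none of the 2 on the Y. For chromosome 4 this allows a share of up to 3.85% as 3 divided by the number of peaks (Wilson limit 4.69%).

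Short sequences at chain summits were compared with and without regard to place. The DRE, an element of promoters of broadly expressed genes, was in 1.65% of chain windows (interval 1.39 to 1.95) and 3.28% of other summit windows (3.05 to 3.52). At coding TSSs alone it was in 5.58% (4.61 to 6.75) and 8.47% (7.87 to 9.12), and elsewhere in 0.507% (0.357 to 0.719) and 0.577% (0.467 to 0.714). The GAGA repeat was in 4.86% of chain windows and 3.68% of others. At coding TSSs it was in 7.16% (6.05 to 8.45) and 4.47% (4.03 to 4.96), and elsewhere in 4.19% (3.71 to 4.72) and 3.27% (2.99 to 3.57). The Zelda sequence was in 1.19% and 0.891%, and the homeodomain core in 14.3% and 14.9%. At coding TSSs the homeodomain core was in 12.6% (11.2 to 14.3) and 15.6% (14.8 to 16.4), and elsewhere in 14.8% and 14.6%. The CAGCTG E-box was in 8.47% and 9.18%, the TATA box in 28.1% and 30.02%, and the Snail type E-box in 5.79% and 6.02%. At coding TSSs the CAGCTG E-box was in 10.4% (9.09 to 11.9) and 13.0% (12.2 to 13.8). Elsewhere the order was reversed, with 7.90% (7.25 to 8.60) and 7.20% (6.79 to 7.63). The split by place is not given here for the Zelda sequence, the TATA box and the Snail type E-box. Mean GC content was 39.5% in chain windows and 38.9% in others. It was 34.1% at the IDR peaks of chains and 41.9% at their other peaks, with a like split outside chains (34.4% and 40.9%). The share of soft-masked bases, which marks repeats and simple sequence in the reference, was 19.3% in chain windows and 19.5% in others.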

How the data were processed

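Peaks of anti-GFP chromatin precipitation from nmo-GFP embryos were taken from 4 deposited lists in narrowPeak format on assembly dm6, per the deposited text notes: replicate 2, replicate 3 and their pool with 30000 peaks each, and an IDR list of 9299. Per the same notes, the peak lists also derive from 1 further file, a source of the control-normalised tracks, not analysed here. The sources used here name no aligner, caller, setting or IDR limit. Column 7, the authors' signal value, is a score used only within a list, and column 9 is the deposited −log10 q-value. The summit was the peak start plus column 10. Chains joined summits at most 2000 bp apart, and the chaining was checked on simulated positions. Genes came from Ensembl release 115 (BDGP 6.54) without transposable elements, and sequence from RefSeq (assembly Release 6). Coordinates are 1-based. In the replicate lists an IDR peak was counted by overlap with the IDR list. Each summit took the first matching class of: coding TSS (500 bp), other TSS, 5' untranslated, 3' untranslated, coding, intronic, exonic of another kind, intergenic. Ties for the host went to the shorter gene. Replicate overlap needed 1 bp.

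Shares have 95% Wilson intervals, and no p-value was computed, since the 2 samples form 1 group and the members were chosen from the same values. Members, gene lists and alternatives were chosen with earlier results of these data known. The IDR share by place, the split of motifs by place and 2 alternatives were added after seeing the data. Named genes are nmo, hosts of the 12 chains with most summits, of the 5 with most IDR peaks, the 5 strongest peaks and the 5 largest chains without IDR peak, the 6 hosts with most chain summits, and up to 2 members per list. Of the fixed symbols, 4 were not in the annotation. Peaks were analysed with Python 3.11.15, pandas 2.3.3, numpy 2.4.6 and scipy 1.17.1, and drawn with matplotlib 3.10.9.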

Additional observations from a re-analysis of the deposited data

How the results depend on the processing

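Counts depended most on which peaks were chained. A distance of 1500 bp gave 577 chains with 4411 summits, a minimum of 8 summits 436 with 4808, and peaks with q of at most 0.05 alone 137 with 962. Merging summits within 436 bp gave 532 with 4260, and IDR peaks alone 16 with 104, both chosen after seeing the data. Without replicate 3 or replicate 2 the ranges were 743 to 1036 chains and 6079 to 8980 summits. The number of listed genes at a chain was 60, and 32, 38 and 6 in the first 3 of these settings.

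The IDR share of chain summits was 60.1% with q of at most 0.05, where 57.7% of all such peaks were IDR peaks, and 36.0% after merging, against 35.0%. From 1 replicate's list it was 39.5% to 40.3%. In replicate 3 alone this was above the 35.0% of all its peaks, and in replicate 2 alone the share over all was 39.9%. The coding TSS share was 17.5% after merging, where 28.8% of all merged peaks lay at a coding TSS. Within 1000 bp it was 32.7%. No share over all peaks is given here for that limit, so it cannot be set beside the 500 bp values. The median signal value was 206 with the q limit and 101 after merging, and mean GC content 36.2% with the q limit. Chains with a host of any gene type were 89.2%. Overlap in both replicate lists was 79.9% at 1500 bp, 98.1% with the q limit, 75.8% after merging, 63.0% with 50% reciprocal overlap and 57.2% with summits within 100 bp. Distances of 2500 bp moved no result by more than 1.5 times or the spread used. No paired analysis was possible because there is 1 group. The number of peaks per list, fixed at 30000, and the unknown read depth limit how far weak chain members can be told from background.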

Other observations

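Runs of 6 or more IDR peaks alone, examined after the data had been seen, numbered 16 and held 104 summits. Each lies inside a chain by construction, and among the 12 chains with most summits only that at CHES-1-like held one. The genes named here were picked after their values were seen. The largest runs had 8 summits each. At trx, the gene of a histone methyltransferase of the Trithorax group, 3 of the 8 lay at a coding TSS and the strongest had a signal value of 2850. At Pgk, the gene of the glycolytic enzyme phosphoglycerate kinase, 7 of 8 lay at a coding TSS, and at brat, a translational repressor gene of neuroblasts, 5 of 8. The run of 7 at Raf, a kinase gene of the Ras pathway, was all away from coding TSSs and had the highest summed signal value, 8464. Runs of 6 at shn and Tlk, a kinase gene, also had no summit at a coding TSS.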
